A study of Mus musculus with 14 samples.

Results

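Potassium channel genes were followed in mouse ventricle after myocardial infarction (MI). The set holds every gene whose symbol starts with Kcn, the root shared by pore subunits, auxiliary subunits and a few noncoding RNAs of potassium channel loci. The array files give no gene symbols, so probes were named through their RefSeq accession, and 5 probes that the files themselves name KCNQ1ot1 were added. Of 20614 named genes on the array, 96 belonged to the set, with 136 probes. Tests were run on probes that, in 1 group or more, passed the scanner software's well-above-background call on each array with scanner output. By this rule 53 of the 96 genes were tested and 43 were not. Of the 43, 27 were above background on no scanner array by any probe and 16 on at least 1.

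Male C57BL/6 mice aged 8 weeks had the left anterior descending coronary artery tied off for good, or underwent the same operation with no ligature (sham). Border-zone ventricle was taken 3 or 14 days after ligation, and no genetic change or drug is named for any group. RNA from 1 sample was hybridised to each 1-colour Agilent SurePrint G3 mouse array, giving 4 sham arrays, 5 arrays at 3 days and 5 at 14 days. The design text speaks of 5 sham mice, and 4 sham arrays were analysed here. The time at which sham hearts were taken is not stated, and the labels do not say whether each array holds a separate animal, so p-values measure the spread between these samples.

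A level below is the log2 signal of a probe minus the 75th percentile of that array, on the log2 scale, and describes 1 probe over arrays. Levels of different probes were not compared. A change is a log2 fold change ± SE from limma fitted to the 3 groups together, with n = 4 for sham and n = 5 for each MI group. It counted as a rise or a fall when the Benjamini-Hochberg adjusted p over all 32257 tested probes was under 0.05. One probe stood for each gene, the tested one with the highest mean level. The array 75th percentiles ran from 188.6 to 443 intensity units, and 54.8% to 66.1% of probes were well above background on the 10 arrays with scanner output. Of the arrays, 3 at MI 3 days and 1 at MI 14 days have none. No spot of the set was saturated on these 10 arrays.

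Potassium channels carry the outward current that ends the cardiac action potential and hold the resting membrane negative. In mouse ventricle, fast repolarisation depends on the transient outward current of Kcnd2 and Kcnd3 pores with the calcium-binding subunit Kcnip2, on delayed rectifiers such as Kcna5, and on inward rectifiers of the Kcnj2 and Kcnj12 kind. Other members serve other cells of the heart, among them the calcium-activated channels Kcnn4 of immune cells and fibroblasts and Kcnma1 with Kcnmb1 of smooth muscle.

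The promoters of 4 genes are shown because their transcripts made up the main patterns: Kcnip2 and Kcnd2, which together form a transient outward channel and fell at both times, Kcnn4, which had the largest fitted rise at 3 days, and Kcnma1, whose tested probe rose at 14 days. Each is the 250 bases before the RefSeq gene start on GRCm38.p6, read 5′ to 3′ along the gene's strand, with the GC box GGGCGG on either strand in capitals. They lie at chr19:45816064-45816313 (minus strand), chr6:21215096-21215345 (plus strand), chr7:24370013-24370262 (plus strand) and chr14:24004206-24004455 (minus strand), outside the annotated gene.
Kcnip2: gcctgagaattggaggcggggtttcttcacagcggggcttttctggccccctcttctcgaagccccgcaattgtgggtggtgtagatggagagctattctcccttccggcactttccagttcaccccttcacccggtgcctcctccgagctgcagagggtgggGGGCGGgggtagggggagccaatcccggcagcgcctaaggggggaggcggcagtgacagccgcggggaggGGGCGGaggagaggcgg
Kcnd2: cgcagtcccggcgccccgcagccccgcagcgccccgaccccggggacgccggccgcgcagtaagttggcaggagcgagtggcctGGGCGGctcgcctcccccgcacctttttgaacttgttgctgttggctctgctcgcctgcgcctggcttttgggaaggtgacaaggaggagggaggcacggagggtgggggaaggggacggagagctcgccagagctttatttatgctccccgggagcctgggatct
Kcnn4: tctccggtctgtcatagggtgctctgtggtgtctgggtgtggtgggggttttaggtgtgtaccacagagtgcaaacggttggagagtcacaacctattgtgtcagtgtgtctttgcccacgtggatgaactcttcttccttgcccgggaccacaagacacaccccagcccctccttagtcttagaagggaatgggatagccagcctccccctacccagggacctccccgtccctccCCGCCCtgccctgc
Kcnma1: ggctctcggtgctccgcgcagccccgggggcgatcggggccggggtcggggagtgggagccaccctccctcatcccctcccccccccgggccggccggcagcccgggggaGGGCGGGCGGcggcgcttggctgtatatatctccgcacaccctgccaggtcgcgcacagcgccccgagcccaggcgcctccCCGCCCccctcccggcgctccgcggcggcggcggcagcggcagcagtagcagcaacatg
GC boxes numbered 2 in Kcnip2, starting 87 and 17 bases before the gene start, 1 in Kcnd2 at 166 bases, 1 in Kcnn4 at 14 bases and 3 in Kcnma1, of which a pair overlaps. The share of G and C was 66.8%, 68.8%, 58.8% and 79.2% in that order. A promoter entry was found for 38 of the 53 tested genes. The GC box stood in 21 of these 38, against 32.7% of 32851 promoters of the same length. It stood in 10 of 19 genes that were lower at 3 days and in 2 of 6 that were higher. The E-box CACGTG stood in 5 of the 38 (6.02% of all promoters), the AP-1 site TGACTCA in 2 (4.46%) and the TATA box TATAAA in 1 (12.4%). Such matches describe letters only.

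At 3 days after infarction most tested potassium channel genes were below sham. Of the 53, 29 were lower and 8 were higher, and 16 were not past the threshold. Among all 14867 named genes tested, 40.5% were lower and 29.8% were higher. The median change of the 53 genes was -0.67, against -0.15 over all named genes. A change of at least 2-fold was seen for 20 of the lower and 7 of the higher genes, and among all named genes 14.3% were lower and 13.9% higher by that much. The 7 higher genes of 53 were near that share. Every array of 1 group lay above every array of the other for 32 of the 53 genes, while this held for 63.2% of all named genes. These counts, and those by subfamily below, include Kcnj14 among the higher genes and Kcnt1 among the lower. Kcnj14 passed the filter only through MI 3 days and Kcnt1 only through sham, where each was high, so their calls are no separate support.

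**Figure D1:**
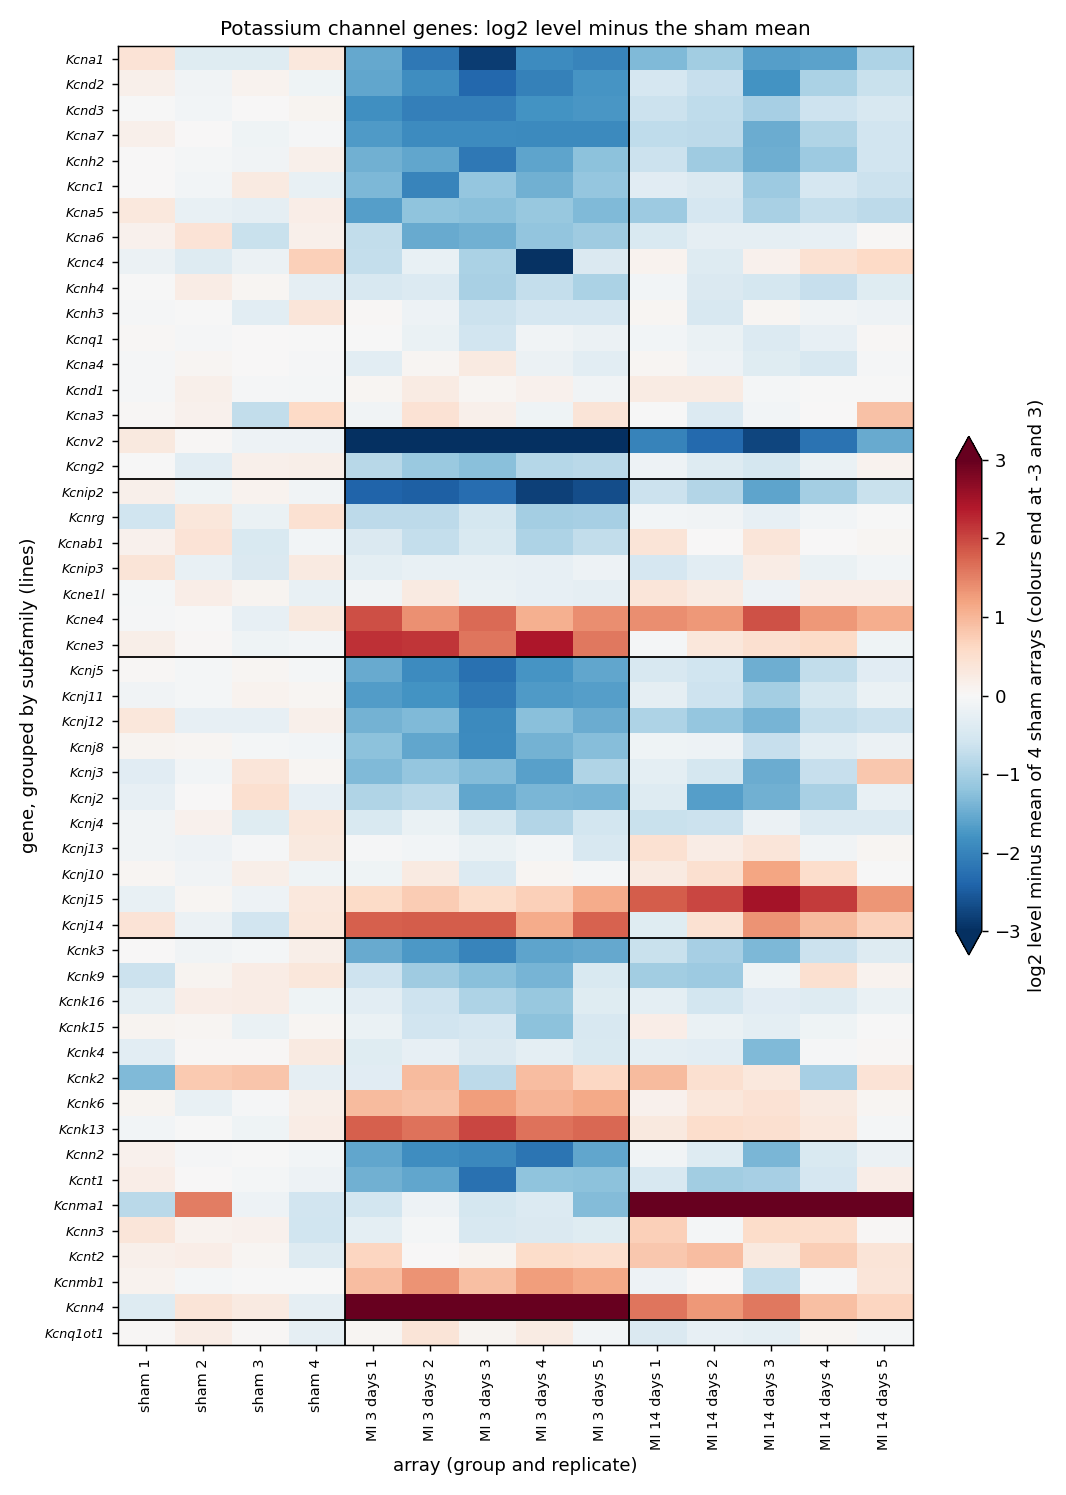
Log2 level of 51 of the 53 tested potassium channel genes (rows, grouped by subfamily) on each of the 14 arrays (columns), minus that gene's mean over the 4 sham arrays; colours end at -3 and 3. Most cells at MI 3 days are blue, and the red cells at MI 14 days for Kcnma1 mark its rise.

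The subfamilies moved unevenly at 3 days. Of 17 tested voltage-gated pore subunits, 11 fell and none rose (median -1.06) by limma, with 0 rises also at an unadjusted p under 0.05. Both tested electrically silent subunits fell. Of 11 inward rectifiers, 7 fell and 2 rose (median -1.21). The 8 two-pore-domain channels split into 4 lower and 2 higher (median -0.48). Among 7 auxiliary subunits 3 fell and 2 rose, and among 7 calcium- and sodium-activated genes 2 fell and 2 rose. The noncoding RNA Kcnq1ot1 was not past the threshold.

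The transient outward channel lost transcripts of both pores and of their partner. Kcnip2, whose protein brings the pores to the membrane, had sham levels of 1.47, 1.18, 1.42 and 1.21. Its 3-day levels were -1.09, -1.13, -0.98, -1.49 and -1.35. The groups lay far apart, and the change was -2.53 ± 0.17, a 5.76-fold fall (limma, adjusted p = 3.89e-08). Kcnd2, a pore subunit, was at 1.66, 1.40, 1.62 and 1.38 in sham and at -0.05, -0.36, -0.84, -0.51 and -0.26 at 3 days. No array of either group reached the other, and the change was -1.92 ± 0.23 (limma, adjusted p = 5.10e-06). Kcnd3, the second pore of this current, was at 1.65, 1.56, 1.67 and 1.72 in sham and at -0.19, -0.40, -0.41, -0.14 and -0.10 at 3 days. It fell by 1.90 ± 0.11 on the log2 scale (limma, adjusted p = 8.30e-09). Kcna4, which carries the slowly recovering part of the transient outward current, did not follow them. Its sham levels were 2.30, 2.40, 2.36 and 2.29, its 3-day levels 2.02, 2.39, 2.60, 2.15 and 2.02, and the groups overlapped (-0.10 ± 0.14, limma adjusted p = 0.527). Kcnd1, another pore of the same subfamily, was also not past the threshold (0.07 ± 0.10, limma adjusted p = 0.518).

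Kcnv2 fell close to the arrays' background. It encodes a subunit that opens no channel alone and joins other voltage-gated pores. Levels in sham were 0.30, 0.04, -0.15 and -0.15, and at 3 days they were -5.06, -4.10, -4.41, -5.02 and -4.83. The fitted change was -4.70 ± 0.24 (limma, adjusted p = 3.61e-09), but the probe exceeded background on just 1 of the 2 scanner arrays at MI 3 days. Sham was at least 22.8-fold higher when the lowest signal well above background replaced the dim value, a bound that rests on those 2 of 5 arrays. Kcng2, the other tested silent subunit, fell less (-0.97 ± 0.14).

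Delayed rectifier genes fell by different amounts. Kcna5, the ultrarapid pore, changed by -1.31 ± 0.15, Kcnh2, the rapid pore, by -1.60 ± 0.19, and Kcnq1, the slow pore, by -0.22 ± 0.11, which did not pass the test (limma, adjusted p = 0.104). Kcna5 levels were 1.77, 1.24, 1.19 and 1.65 in sham and -0.19, 0.26, 0.22, 0.32 and 0.13 at 3 days. Kcnh2 levels were 0.97, 0.90, 0.85 and 1.10 in sham and -0.49, -0.60, -1.20, -0.63 and -0.28 at 3 days. Neither gene's groups overlapped. Kcna1 (-2.08 ± 0.26) and Kcna7 (-1.86 ± 0.15), pores of the Kcna subfamily, fell further, and Kcnc1, Kcna6 and Kcnh4 fell by 1.42, 1.19 and 0.70 on the log2 scale. Kcnc4 was at -1.06 ± 0.45 with an adjusted p = 0.0550 (limma), and Kcna3 and Kcnh3 also missed the threshold.

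Inward rectifiers include the resting-potential genes Kcnj2, Kcnj12 and Kcnj4, the ATP-sensitive pores Kcnj8 and Kcnj11, and the acetylcholine-activated pores Kcnj3 and Kcnj5. All 7 fell at 3 days in the fit of all arrays, with calls of Kcnj3 and Kcnj4 that ended under other settings. Kcnj12 was at 2.05, 1.45, 1.45 and 1.85 in sham and at 0.28, 0.37, -0.20, 0.46 and 0.22 at 3 days (-1.48 ± 0.18). Kcnj2 was at -2.60, -2.33, -1.86 and -2.60 in sham and at -3.25, -3.15, -3.91, -3.73 and -3.74 at 3 days (-1.21 ± 0.29). Both genes' arrays separated completely between the groups. The ATP-sensitive pair fell together: Kcnj11, the cardiomyocyte pore, was at 1.97, 2.01, 2.18 and 2.13 in sham and at 0.40, 0.28, -0.05, 0.39 and 0.42 at 3 days (-1.79 ± 0.15). Kcnj8, the pore known from vascular muscle, was at 1.69, 1.68, 1.57 and 1.54 and then at 0.39, 0.07, -0.26, 0.20 and 0.35 (-1.47 ± 0.14). Kcnj5 changed by -1.79 ± 0.20, Kcnj3 by -1.26 ± 0.33 and Kcnj4 by -0.52 ± 0.16. A fit of the 10 scanner arrays that blocked on slide did not call Kcnj3 (-1.34, limma adjusted p = 0.105), nor did the same arrays without the block (-1.26, 0.0589). Normexp background correction of these arrays did not call Kcnj4 (-0.27, limma adjusted p = 0.145). Atrial markers moved with the acetylcholine-activated genes: all 3 tested (Myl7, Sln and Myl4, not Bmp10) fell, and their summed level, in multiples of the array's 75th percentile, was 4.84 to 29.4 in sham and 1.48 to 2.29 at 3 days. All 3 were above background on every sham scanner array but only 1 on every MI 3 days scanner array, so the sizes of these falls are uncertain. The part of the atrial markers in the change of Kcnj3 and Kcnj5 was not tested.

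**Figure D2:**
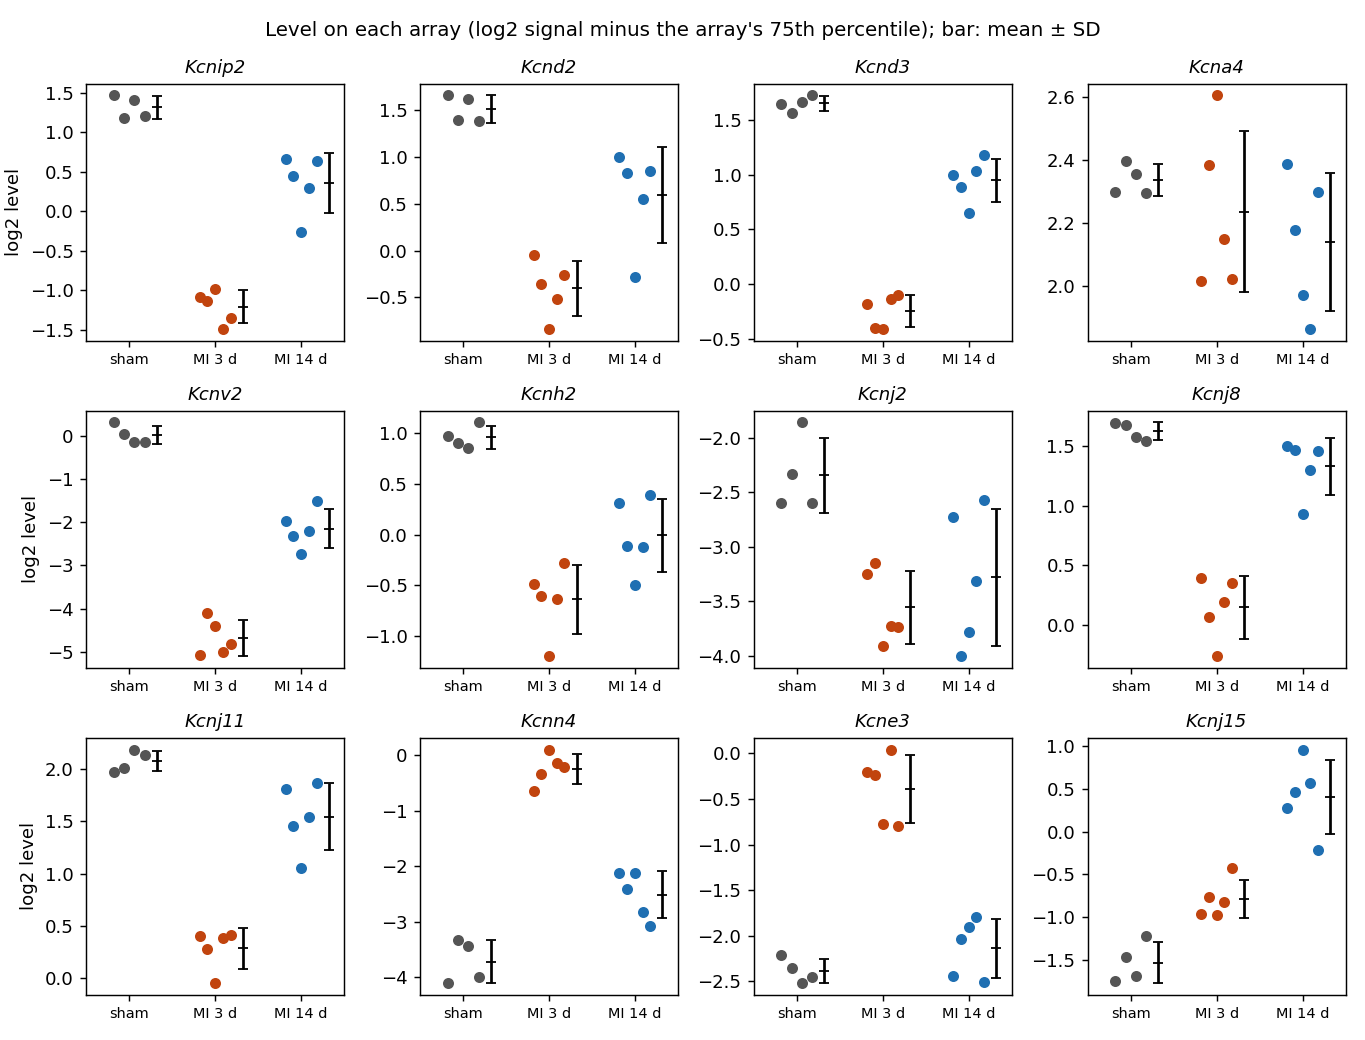
Level of 12 potassium channel genes on each array (points; log2, relative to the array's 75th percentile) with the mean ± SD of each group (bars), on axes that differ between panels. Kcnip2, Kcnd2 and Kcnd3 lay above 1 on every sham array and below 0 on every MI 3 days array, whereas the groups of Kcna4 overlapped.

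Of the auxiliary genes, Kcnrg, which acts on the assembly of voltage-gated channels, fell by 0.83 ± 0.18 on the log2 scale, and Kcnab1, a cytoplasmic beta subunit, by 0.65 ± 0.16. Kcnip3 did not pass the test (-0.23 ± 0.17).

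Some two-pore and some calcium- and sodium-activated channels also fell, while others, given below, rose. Kcnk3, an acid-sensitive two-pore channel, was at 4.75, 4.62, 4.67 and 4.91 in sham and at 3.22, 3.01, 2.76, 3.15 and 3.21 at 3 days (-1.67 ± 0.17, limma adjusted p = 1.06e-06). Kcnn2, a small-conductance calcium-activated channel, was at 0.91, 0.77, 0.79 and 0.72 and then at -0.77, -1.08, -1.13, -1.40 and -0.77 (-1.83 ± 0.22). Kcnt1, a sodium-activated channel, changed by -1.53 ± 0.25, and it was tested only because it was above background on every sham array. Kcnk9, Kcnk16 and Kcnk15 fell by 0.96, 0.67 and 0.60 on the log2 scale. The groups of Kcnk9 and Kcnk15 overlapped. The call of Kcnk9 ended on the 10 scanner arrays without the slide block, with normexp, and without sham replicates 3 or 4. The related Kcnk2, a stretch-sensitive channel, passed the filter only through MI 3 days and did not pass the test (0.28 ± 0.51).

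Markers of ventricular muscle moved the same way. All 8 (Myh6, Myl2, Myl3, Tnni3, Tnnt2, Ryr2, Pln and Atp2a2) fell at 3 days, from -0.54 ± 0.14 for Myh6 to -2.03 ± 0.21 for Pln, and their summed level was 4948 to 6237 in sham and 2801 to 3253 at 3 days. In bulk tissue, fewer cells of a type and less RNA per cell cannot be told apart. The part of muscle content in the falls was not tested.

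Of the 8 genes that rose at 3 days, Kcnj14 and Kcnk6 stood on the list of cardiac currents and the other 6 did not. Kcnn4, the intermediate-conductance calcium-activated channel, was at -4.10, -3.33, -3.44 and -3.99 in sham and at -0.64, -0.33, 0.10, -0.15 and -0.20 at 3 days. The groups lay well apart, and the rise was 3.47 ± 0.23, or 11.1-fold (limma, adjusted p = 2.60e-08). Kcne3, a single-span subunit that changes the gating of several pores, was at -2.22, -2.35, -2.52 and -2.45 and then at -0.20, -0.23, -0.78, 0.04 and -0.79. It rose by 1.99 ± 0.19, and its second tested probe by 1.72 ± 0.21. Kcne4, a related subunit known to inhibit Kcna-type pores, rose by 1.49 ± 0.19 (-2.68, -2.66, -2.90 and -2.36 in sham, -0.71, -1.27, -0.96, -1.58 and -1.26 at 3 days).

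The remaining rises fell on the two-pore genes Kcnk13, a channel known from microglia, and Kcnk6, one described in macrophages, on the inward rectifiers Kcnj14 and Kcnj15, and on Kcnmb1. Kcnk13 was at -1.58, -1.49, -1.62 and -1.26 in sham and at 0.31, 0.15, 0.51, 0.15 and 0.24 at 3 days (1.75 ± 0.13). Kcnk6 was at 1.29, 0.99, 1.19 and 1.40 and then at 2.17, 2.11, 2.47, 2.24 and 2.35 (1.05 ± 0.11). Every 3-day array of both genes lay above every sham array. Kcnj14 was higher by 1.66 ± 0.30, but it passed the filter only through the MI 3 days arrays, where it was high, and was above background on 2 of 4 sham arrays. With normexp on the 10 scanner arrays its call ended (0.29, limma adjusted p = 0.117). Kcnj15 rose by 0.74 ± 0.20, with an adjusted p = 0.0518 by limma in the slide-blocked fit of the 10 scanner arrays. Kcnmb1, the smooth muscle partner of Kcnma1, rose by 1.11 ± 0.17 while the tested probe of Kcnma1 was above background on none of the scanner arrays of either group.

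Leukocyte, fibroblast and smooth muscle markers moved with these rises. Of 7 tested macrophage and monocyte markers 6 rose, Ptprc by 2.37 ± 0.20 and Adgre1 by 1.68 ± 0.15 among them, and Itgam fell. Their summed level, which the brightest markers set, was 169.8 to 224.2 in sham and 166.8 to 217 at 3 days. Of 4 neutrophil markers 3 rose and Csf3r fell (summed level 207.6 to 227.2, then 190.2 to 268.5). Fibroblast markers rose in 5 of 8 and fell in 1 (400.3 to 421.2, then 716.7 to 1006), and smooth muscle and pericyte markers rose in 5 of 8 and fell in 3 (96.1 to 115.3, then 123.8 to 182.3). Lymphocyte markers split into 1 higher and 1 lower of 6 (6.34 to 7.20, then 5.57 to 7.0), endothelial markers into 1 higher and 2 lower of 6 (48.4 to 52.2, then 40.4 to 48.6), and nerve and Schwann cell markers fell in 4 of 5 (8.08 to 9.31, then 3.72 to 4.43). The part of these cells in the rises and falls was not tested.

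At 14 days fewer genes differed from sham, and the differences were smaller. Of the 53, 17 were lower and 5 were higher, with 31 not past the threshold, where 24.2% of all named genes were lower and 15.9% higher. The median change was -0.20, against -0.08 over all named genes. Of the lower genes 2, Kcnv2 and Kcna1, and of the higher genes 4 changed at least 2-fold, against 1.51% and 4.67% of all named genes. Arrays separated between the groups for 21 of the 53, and for 35.2% of all named genes. Voltage-gated pores gave 9 falls of 17, inward rectifiers 5 falls and 1 rise of 11, two-pore channels 1 fall of 8, auxiliary subunits 1 fall and 1 rise of 7, and the calcium- and sodium-activated genes 3 rises of 7. Kcnma1 is among these 3 rises, the 5 higher genes, the 4 changed at least 2-fold and the 21 separated genes. Its tested probe passed the filter only through MI 14 days, where it was high, so its place in these counts is no separate support.

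**Figure D3:**
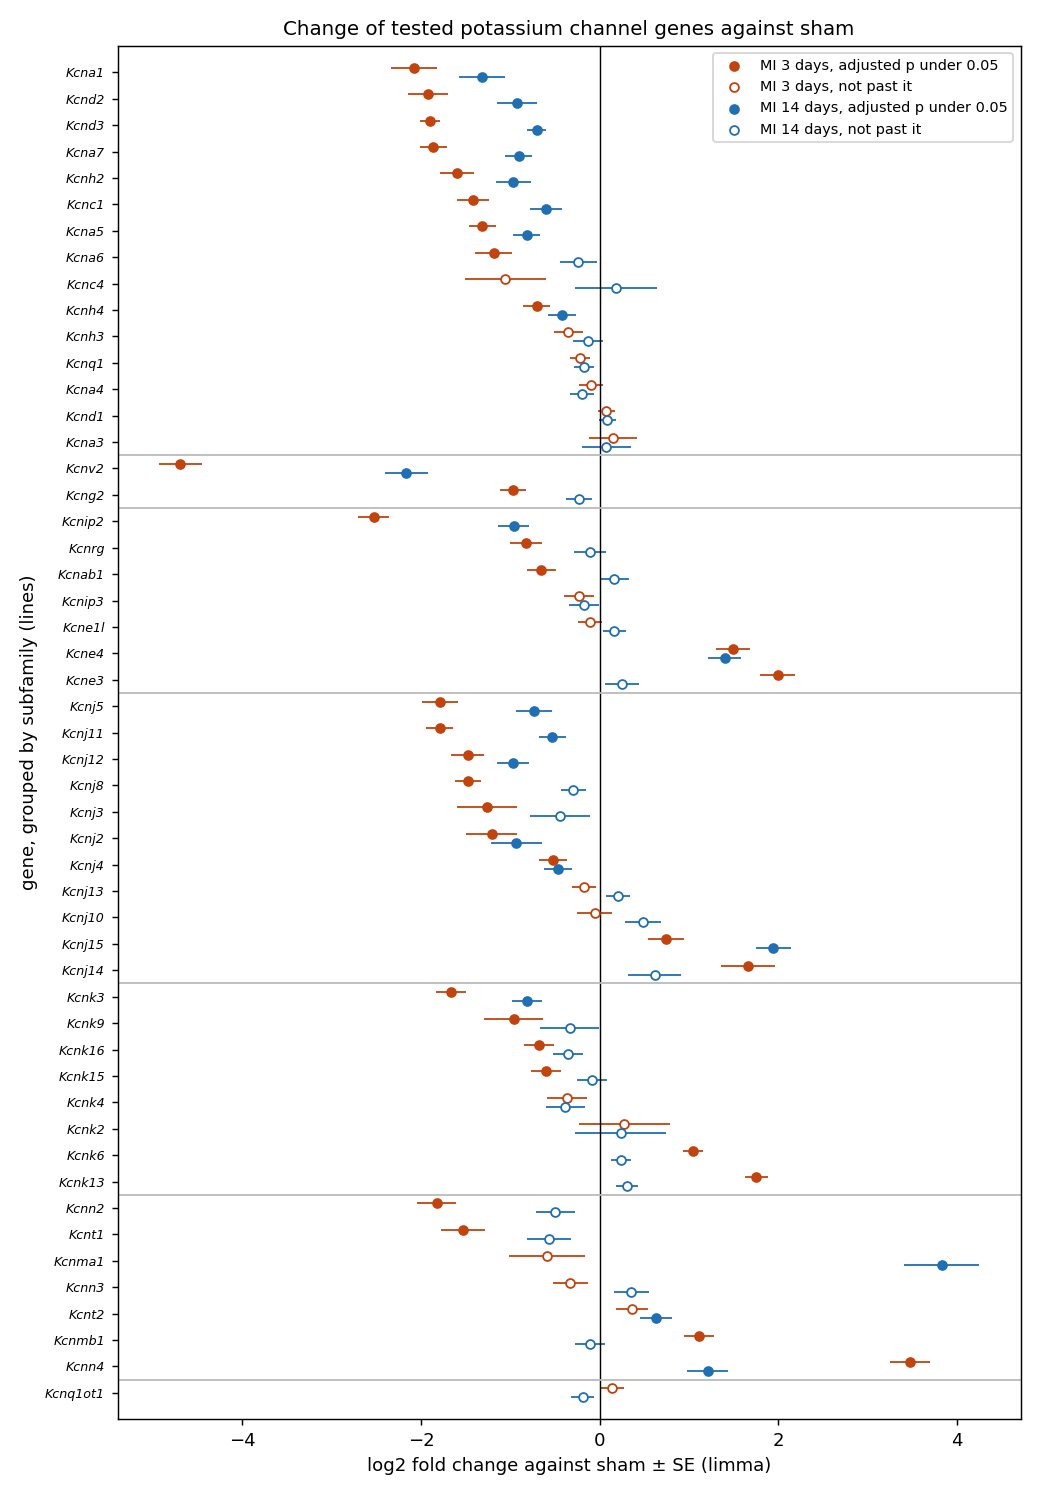
Log2 fold change against sham ± SE (horizontal axis, limma) of 51 of the 53 tested genes, grouped by subfamily, at 3 days (red) and 14 days (blue) after infarction; filled points have an adjusted p under 0.05. Most red points lie left of 0, with Kcnv2 at -4.70 and Kcnn4 at 3.47, and Kcnma1 at 14 days, for which only a bound is given, is drawn at its fitted 3.83.

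The transient outward genes were still low at 14 days. Kcnip2 stood at 0.67, 0.45, -0.27, 0.30 and 0.64 (-0.96 ± 0.17, limma adjusted p = 0.00115). Kcnd3 stood at 0.99, 0.88, 0.65, 1.04 and 1.18 (-0.70 ± 0.11), and Kcnd2 at 1.0, 0.83, -0.28, 0.56 and 0.85 (-0.92 ± 0.23). All 14-day arrays of these 3 genes lay below all sham arrays. Kcna4 (-0.20 ± 0.14) and Kcnd1 (0.09 ± 0.10) were again not past the threshold. Kcnv2 was at -1.98, -2.33, -2.74, -2.20 and -1.51, a 4.48-fold fall (-2.16 ± 0.24), while Kcng2 did not pass the test (-0.23 ± 0.14).

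Among delayed rectifiers, Kcna5 (-0.82 ± 0.15), Kcnh2 (-0.96 ± 0.19), Kcna7 (-0.91 ± 0.15) and Kcna1 (-1.31 ± 0.26) were lower than sham, and Kcnc1 and Kcnh4 fell by 0.60 and 0.42 on the log2 scale. The groups of Kcnh4 overlapped, and its call (limma, adjusted p = 0.0475) ended with array median scaling, among other settings. It also ended without any 1 of sham replicates 1 to 3, MI 3 days replicate 4 or MI 14 days replicates 2 to 5. The call of Kcnc1 ended without the filter, with normexp, and without sham replicates 1 or 3. Kcnj12 was at 0.77, 0.54, 0.30, 0.98 and 1.06 (-0.97 ± 0.18). Kcnj2 was at -2.73, -4.00, -3.78, -3.31 and -2.57 and overlapped sham (-0.93 ± 0.29, limma adjusted p = 0.0234). Its call ended without sham replicate 3 (adjusted p = 0.0762), without MI 14 days replicate 2 (0.0517) and without replicate 3 (0.0574), by limma. Kcnj11 (-0.53 ± 0.15) and Kcnj5 (-0.73 ± 0.20) were lower, and Kcnj8 and Kcnj3 were not past the threshold (-0.29 ± 0.14 and -0.44 ± 0.33). All 3 tested atrial markers were lower at 14 days too, with a summed level of 1.99 to 5.87, and their part in the change of Kcnj5 was not tested. Only 1 of the 3 was above background on every MI 14 days scanner array. Kcnk3 changed by -0.81 ± 0.17. Kcnj4 was lower (-0.46 ± 0.16), but its call ended under 7 other settings (limma adjusted p from 0.0501 to 0.600) and without any 1 of sham replicates 1, 2 and 4 or MI 14 days replicates 1, 2, 4 and 5 (limma adjusted p from 0.0501 to 0.124).

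MI 14 days replicate 3 had the lowest level of its group in 13 of the 17 genes called lower. Without it 15 genes were lower and 5 higher, Kcnd2 changed by -0.71 (limma, adjusted p = 0.00472) and Kcnip2 by -0.80 (adjusted p = 0.000696). On the 10 scanner arrays the count of lower genes was 14 without and 9 with a block on slide. The main fit called 6372 of all 32257 tested probes lower, and the slide-blocked fit 2949. Among the calls that ended there were those of Kcnd2, Kcnj2, Kcnj5, Kcnj11, Kcnk3, Kcnc1 and Kcnh4, and calls held for Kcnip2 (-0.90, limma adjusted p = 0.0405), Kcnd3 (-0.70, 0.0239) and Kcnv2 (-2.09, 0.00693). Ventricular muscle markers fell in 4 of 8 at 14 days (Tnni3, Ryr2, Pln and Atp2a2), with a summed level of 4802 to 6759. Their part in the falls was not tested.

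Kcnma1, the pore of the large-conductance calcium-activated channel, was higher at 14 days by its tested probe. This probe was at -6.71, -4.36, -6.05 and -6.46 in sham, at -6.45, -6.06, -6.42, -6.30 and -7.20 at 3 days, and at -1.35, -1.99, -1.85, -2.30 and -2.84 at 14 days. It was above background on none of the 4 sham and none of the 2 MI 3 days scanner arrays, and on all 4 at 14 days, so it passed the filter only through that group. The 14-day mean was at least 4.88-fold higher than sham (limma, adjusted p = 3.90e-05) and at least 6.51-fold higher than MI 3 days (adjusted p = 9.64e-07). These bounds set the mean of the bright group against the lowest signal well above background on each dim array, or the probe's own signal where higher, and the second rests on 2 of the 5 MI 3 days arrays. A probe that entered through the group where it is high had to differ, so these p-values are no separate support. With normexp on the 10 scanner arrays the fitted rise over sham was 0.87, below that of Kcnj15 in the same setting (1.39). The gene's other probes showed less. The second, which was not tested, averaged -4.86 in sham, -5.74 at 3 days and -3.43 at 14 days and was above background on 2, 0 and 3 scanner arrays. Without the filter it stood for the gene, and the 14-day call ended (1.43, limma adjusted p = 0.0523). The remaining probe was above background on none.

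**Figure D4:**
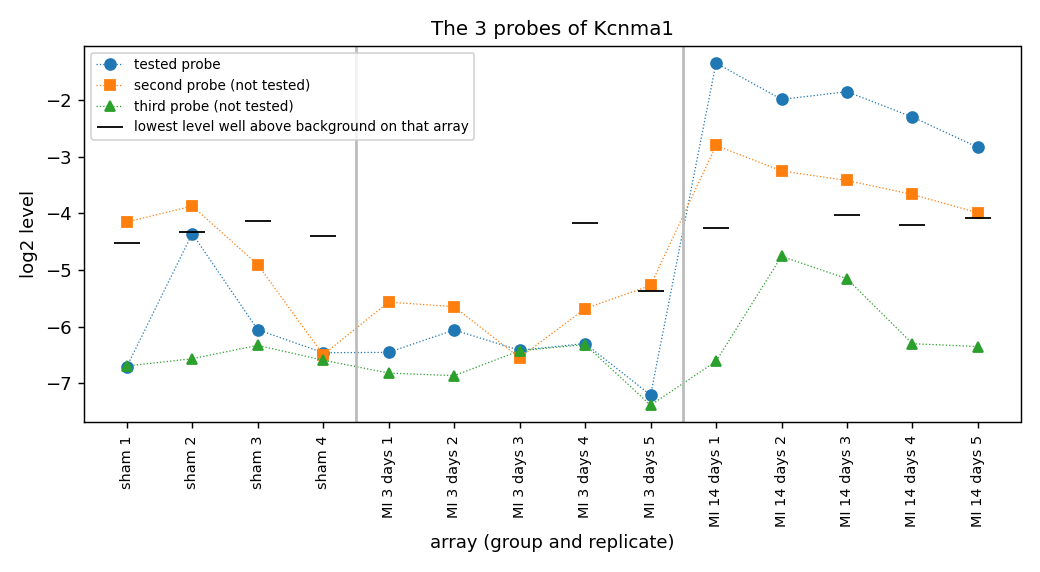
Level (log2) of the 3 Kcnma1 probes on each of the 14 arrays; black dashes give the lowest level well above background on the 10 arrays with scanner output, and dotted lines only join points of 1 probe. The tested probe lies between -2.84 and -1.35 on the 5 MI 14 days arrays and at -4.36 or below elsewhere.

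The other genes higher at 14 days were Kcnj15, Kcne4, Kcnn4 and Kcnt2. Kcnj15, an inward rectifier known from epithelia, was at -1.75, -1.47, -1.69 and -1.23 in sham, at -0.96, -0.77, -0.98, -0.83 and -0.43 at 3 days and at 0.28, 0.46, 0.96, 0.57 and -0.21 at 14 days. The 3 groups did not overlap, and the 14-day rise was 1.95 ± 0.20, or 3.85-fold (limma, adjusted p = 2.23e-05). Kcne4 was at -1.26, -1.34, -0.73, -1.35 and -1.57 (1.40 ± 0.19). Kcnn4 was at -2.12, -2.41, -2.12, -2.82 and -3.07, between its sham and 3-day values (1.21 ± 0.23). Kcnt2, a sodium-activated channel, rose by 0.63 ± 0.18, and its call ended without sham replicate 4 (0.50, limma adjusted p = 0.0550). Fibroblast markers rose in 8 of 8 at 14 days (summed level 1012 to 1455), macrophage markers in 2 of 7 (191.6 to 220) and smooth muscle markers in 2 of 8 (88.8 to 119.5). The part of such cells in the rises was not tested.

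Between 3 and 14 days, 30 of the 53 genes were higher at the later time and 7 lower, where 33.6% of all named genes were higher and 26.9% lower. The median difference was 0.53, against 0.08 over all named genes. At least 2-fold differences numbered 10 higher and 5 lower genes, against 6.73% and 8.62% of all named genes. Separate arrays were seen for 25 of the 53, and for 46.1% of all named genes. Kcnma1 is counted among the higher genes and Kcnj14 among the lower, each having passed the filter only through the group where it was high. This comparison and those against sham share arrays. Kcnv2 was at least 5.08-fold higher at 14 than at 3 days (fitted 2.53 ± 0.23), by the same bound as against sham. Kcnip2 was higher 2.96-fold (1.57 ± 0.16), Kcnn2 2.51-fold (1.33 ± 0.21), Kcnj11 2.39-fold (1.26 ± 0.14), Kcnj15 2.30-fold (1.20 ± 0.19), Kcnd3 2.29-fold (1.19 ± 0.10) and Kcnj8 2.27-fold (1.18 ± 0.13). Calls of Kcnj15, Kcnd2, Kcnj5 and Kcnk3 ended in the slide-blocked fit of the 10 scanner arrays (limma adjusted p = 0.0756, 0.0927, 0.0773 and 0.0775). Kcna4, Kcnq1 and Kcnd1 were not past the threshold here either (-0.09 ± 0.13, 0.04 ± 0.11 and 0.01 ± 0.09).

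The genes lower at 14 than at 3 days were Kcnn4 (-2.27 ± 0.21), Kcne3 (-1.75 ± 0.18), Kcnk13 (-1.44 ± 0.12), Kcnmb1 (-1.22 ± 0.16), Kcnj14 (-1.04 ± 0.28), Kcnk6 (-0.81 ± 0.10) and Kcnq1ot1 (-0.33 ± 0.12). The call of Kcnj14 ended under 3 other settings (limma adjusted p from 0.0541 to 0.501) and that of Kcnq1ot1 under 7 (0.0507 to 0.529). The value of Kcnq1ot1 is that of its representative probe. Its other 5 tested probes were not called and lay from 0.03 to 0.50, so no direction is given for this RNA. Kcne3 at 14 days was at -2.44, -2.03, -1.90, -1.80 and -2.51, over the range of sham, and Kcnk13 at -1.18, -0.96, -1.0, -1.18 and -1.55. Kcne4 did not pass the test between the times (-0.10 ± 0.18). The main fit called 10549 of all 32257 tested probes higher at 14 than at 3 days, and the slide-blocked fit of the 10 scanner arrays 4765. On these 10 arrays 23 genes of the set were higher without the block, and 12 in the slide-blocked fit. Among those that kept the call were Kcnv2 (2.70, limma adjusted p = 0.00206), Kcnip2 (1.76, 0.00542) and Kcnd3 (1.08, 0.00584). Macrophage markers were lower at 14 than at 3 days in 6 of 7, neutrophil markers in 3 of 4 and ventricular muscle markers higher in 8 of 8, and their part was not tested.

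The members listed for the cardiac currents were counted as a group. Of 28 listed, 23 were tested, and Kcna2, Kcne1, Kcne2, Kcnk1 and Kcnn1 were not. At 3 days 16 fell and 2 rose (median -1.31), at 14 days 12 fell and 1 rose (median -0.50), and 16 were higher and 2 lower at 14 than at 3 days (median 0.82). Over all named genes 40.5% were lower and 29.8% higher at 3 days, and 24.2% and 15.9% at 14 days. Between the times 33.6% of them were higher and 26.9% lower. The medians over all named genes were -0.15, -0.08 and 0.08. The rises include Kcnj14 at 3 days and Kcnma1 at 14 days, each of which passed the filter only through the group where it was high. Of the 4 transient outward genes, Kcna4 alone was past the threshold at neither time.

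Partners encoded outside the family were followed too. Of 12 tested partner subunits and anchors 8 fell at 3 days and 7 at 14 days, where 40.5% and 24.2% of all named genes were lower. The sulfonylurea receptor genes, whose proteins surround the ATP-sensitive pores, fell at 3 days (Abcc8 by 1.62 ± 0.11 and Abcc9 by 1.25 ± 0.17 on the log2 scale). At 14 days Abcc8 changed by -0.46 ± 0.11 and Abcc9 by -0.26 ± 0.17, the latter not past the threshold. Amigo1, a membrane partner of voltage-gated channels, changed by -1.42 ± 0.13 and -0.37 ± 0.13 and Lrrc52, an auxiliary subunit of large-conductance channels, by -2.95 ± 0.37 and -2.83 ± 0.37, and both passed the test at both times. Lrrc52 averaged -1.75 in sham, -4.70 at 3 days and -4.58 at 14 days. The lowest level well above background was -4.17 and -5.37 on the MI 3 days scanner arrays and -4.26 to -4.02 on those at 14 days. The fitted sizes of its falls are therefore uncertain. Dpp6 and Dpp10, which join Kcnd pores, did not pass it (-0.35 ± 0.19 and -0.15 ± 0.50 at 3 days, 0.01 ± 0.19 and 0.41 ± 0.50 at 14 days).

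Of 7 regulators 5 fell at 3 days, and at 14 days 2 fell and 1 rose, beside the same shares of all named genes for falls and 15.9% for rises. Irx5, a repressor of Kcnd2 in the ventricular wall, fell at both times (-1.34 ± 0.15 and -0.42 ± 0.15), and Irx3 fell at 3 days (-1.33 ± 0.22). Rgs6 and Gnb5, which speed the closing of acetylcholine-activated channels, fell at 3 days (-1.14 ± 0.19 and -0.73 ± 0.12) and were not past the threshold at 14 days. Rgs4, another regulator of G-protein signalling, rose at 14 days (1.26 ± 0.12). At 3 days its value was -0.07 ± 0.12, and it was higher at 14 than at 3 days (1.33 ± 0.11, limma adjusted p = 4.14e-07).

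Probes of 1 gene did not always give the same answer. Of the 53 genes 11 had several tested probes. Those of Kcna5, Kcna7, Kcne3, Kcng2, Kcnj3 and Kcnj11 were all called in 1 direction at 3 days, although the second probes of Kcna5 and Kcna7 changed less (-0.59 ± 0.14 and -0.66 ± 0.13). At 14 days the second probes of Kcna7 (-0.27 ± 0.13) and Kcnj11 (-0.38 ± 0.22) were not past the threshold. That of Kcnj3 was lower than sham at 14 days (-0.98 ± 0.34, limma adjusted p = 0.0382), unlike the representative probe. Kcnrg fell at 3 days by its representative probe only (second probe -0.40 ± 0.27). Kcne1l, an auxiliary subunit gene, had a representative probe that was not past the threshold at 3 days (-0.11 ± 0.13) and a second that rose (1.54 ± 0.27). The 6 tested probes of Kcnq1ot1, the noncoding RNA from the imprinted Kcnq1 locus, gave 1 rise and 2 falls at 3 days and 1 of each at 14 days, so no direction is given for this RNA.

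Scaling bears on all of these counts. When arrays were centred on their median in place of the 75th percentile, the median change of all 32257 probes at 3 days moved from -0.19 to -0.01, and the share of higher among called probes from 39.1% to 51.0%. Between the times the median moved from 0.13 to -0.06 and that share from 58.8% to 38.6%. At 14 days the share was 39.2% by the main scaling and 53.1% with the percentile over tested probes. The potassium channel counts under median centring were 29 lower and 9 higher at 3 days, 16 lower and 5 higher at 14 days, and 21 higher and 7 lower between the times. Of all 32257 probes under that centring, 9534 were lower and 9932 higher at 3 days, and 5863 lower and 3530 higher at 14 days. Between the times 6160 of them were higher and 9812 lower.

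Background correction bears on dim probes. With normexp on median signals of the 10 scanner arrays, which adds an offset before the log, several called changes at 3 days were smaller by over 1.5 times and kept their call: Kcnv2 at -2.29, Kcnn4 at 1.71, Kcne3 at 1.20, Kcna1 at -1.13, Kcnh2 at -1.06, Kcnj3 at -0.69, Kcne4 at 0.60, Kcnj2 at -0.48 and Kcnmb1 at 0.44. At 14 days Kcnv2 was at -1.39, Kcna1 at -0.82, Kcne4 at 0.77 and Kcnn4 at 0.40, each still called. The 14-day calls of Kcnj11 (-0.38, limma adjusted p = 0.0599), Kcnt2 (0.28, 0.0619), Kcnj2 (-0.16, 0.514) and Kcnj4 (-0.11, 0.600) ended there, as did that of Kcnc1.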

How the data were processed

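Expression was measured on 14 one-colour arrays. The series' table holds linear Cy3 intensity values deposited by the authors without scaling between arrays. Scanner intensities of 10 arrays were made with Agilent Feature Extraction 10.7.3.1, per the file headers, and equal the table's values for all 55050 probes with 1 spot (within a relative difference of 0.0001). The submitters' processing notes name limma with no role. Log2 was taken here of the deposited intensity, and each array's 75th percentile was subtracted.

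Probes were named by RefSeq accession (assembly GRCm38.p6; 26001 of 27043 coding and 1143 of 1543 noncoding accessions matched). Dim probes, by the scanner software's background call, were left out (23225 of 55482, beside 199 probes with no row in the table). The 3 groups were fitted together in limma 3.58.1 (R 4.3.3, two-sided), and the pipeline was tested on simulated data. The number of arrays limits the precision. Values of 2 members, which stay in the fit and the counts, are not reported here.

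Members, lists, tests and the rule for named genes were chosen with earlier results of these data known. Named were genes of cardiac currents, the 8 largest changes each way per comparison among called genes whose arrays did not overlap, genes whose probes disagreed, partners and regulators. The labels do not say what replicate numbers share, and the main fit did not pair arrays by them. Same-number correlations of deviations ran from -0.135 to 0.224. Pairs with different numbers were not compared, so these values do not settle whether same-number arrays shared handling.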

Additional observations from a re-analysis of the deposited data

Results flagged for a closer look

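Of 96 groups of arrays of the named genes, 3 held 1 array far from the others, where chance gives about 1 in 20. Kcna7 was highest on MI 3 days replicate 1 (0.61, the others 0.41 to 0.44). Kcnj14 was lowest on MI 3 days replicate 4 (-3.30, the others -2.66 to -2.60). Kcnn2 was lowest on MI 14 days replicate 3 (-0.58, the others 0.35 to 0.70).

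The change against sham differed between 3 and 14 days for 25 named genes, by limma's test of MI 14 days against MI 3 days. Values here are the 14-day change minus the 3-day change, on the log2 scale. It was positive for 18 genes. Transient outward and silent subunits gave 1.57 for Kcnip2, 1.0 for Kcnd2, 1.19 for Kcnd3 and 2.53 for Kcnv2, which was near background at 3 days. Delayed rectifier and other voltage-gated pores gave 0.50 for Kcna5, 0.63 for Kcnh2, 0.77 for Kcna1 and 0.95 for Kcna7. Among inward rectifiers the value was 0.51 for Kcnj12, 1.26 for Kcnj11, 1.18 for Kcnj8, 0.82 for Kcnj3, 1.06 for Kcnj5 and 1.20 for Kcnj15. It was 0.86 for Kcnk3, 1.33 for Kcnn2 and 0.68 for Kcnn3. For Kcnma1, whose tested probe was not well above background at 3 days, a bound is given instead, at least 6.51-fold higher at 14 than at 3 days. Calls ended under other settings for Kcna1 (5 settings, limma adjusted p from 0.0538 to 0.352), Kcna5 (5, 0.0971 to 0.368), Kcnh2 (4, 0.0569 to 0.362), Kcnj12 (4, 0.129 to 0.356), Kcnj3 (7, 0.0651 to 0.336) and Kcnn3 (1, 0.0554). In the slide-blocked fit of 10 arrays the values of Kcna1, Kcna5 and Kcnh2 were 0.43, 0.28 and 0.35. Calls of Kcnd2, Kcnj5, Kcnj15 and Kcnk3 ended in that fit as well.

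It was negative for 7 genes, at -2.27 for Kcnn4, -1.75 for Kcne3, -1.44 for Kcnk13, -1.22 for Kcnmb1, -1.04 for Kcnj14, -0.81 for Kcnk6 and -0.33 for Kcnq1ot1. For Kcnq1ot1 this holds for the representative probe only, as the other 5 tested probes were not called and had positive values.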

How the results depend on the processing

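Counts of called genes kept within 1.5 times of their main value under the alternatives run, with 4 exceptions. In the fit of the 10 scanner arrays that blocked on slide, 9 genes in place of 17 were lower at 14 days than in sham. In that fit 12 in place of 30 were higher at 14 than at 3 days. The same 10 arrays without the block gave 14 and 23. The blocked fit has fewer arrays and residual degrees of freedom than the main fit, and the part of the slide term was not tested. The count of genes higher at 14 than at 3 days was 18 with normexp on median signals. This alternative was chosen after seeing the data because the files hold no mean signal, so the planned normexp was not run. With the 75th percentile over tested probes 8 genes in place of 5 were higher at 14 days, and the cause was not tested. Kcnq1ot1 reversed between the times, to 0.11 (adjusted p = 0.32), when the mean of all its tested probes was taken, since these differ in direction. With a replicate block 30 genes were lower and 8 higher at 3 days, 19 lower and 5 higher at 14 days, and 30 higher and 6 lower between the times. Of all 32257 tested probes, 12867 were lower and 8098 higher at 3 days with that block, and 6420 and 3961 at 14 days. Between the times 10536 of them were higher and 7303 lower.

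Leaving out each replicate in turn gave 29 to 30 lower and 8 to 9 higher genes at 3 days, 14 to 17 and 5 to 7 at 14 days, and 27 to 31 higher and 6 to 7 lower between the times. Between the times, calls of Kcnj3 ended without any 1 of MI 3 days replicates 1 to 4 or MI 14 days replicates 1, 2 and 5 (adjusted p 0.0548 to 0.0870), of Kcnj12 without MI 3 days replicate 3 or MI 14 days replicates 4 or 5 (0.0601 to 0.0641), and of Kcnq1ot1 without MI 3 days replicates 2 or 4 or MI 14 days replicates 1 to 3 (0.0590 to 0.0803), by limma. Every called gene kept its direction within each slide that held both groups, on arrays the fit also used. Signal over background limits the 43 genes not tested, Kcnma1, and Kcnv2 at 3 days. It also limits Kcnt1, which passed the filter only through sham, Kcnj14 and Kcnk2, which passed only through MI 3 days, and the partner Lrrc52. Of the 53 tested genes, 44 were above background on every scanner array. With a filter that asked for this, 5 genes called at 3 days, 3 called at 14 days and 6 called between the times were not tested.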
